A study of Mus musculus with 21 samples.

Results

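Striatal tissue of mice labelled GCas9 was compared with striatal tissue of mice labelled WT in the first set of libraries of an RNA sequencing study. Membership was read from the sample titles, with titles 7 to 9 taken as GCas9 replicates 1 to 3 and titles 1 to 3 as WT replicates 1 to 3, so that 6 of the 21 libraries of the series were compared. All animals were wild type mice, and one protocol, injection of an adeno-associated virus (AAV) into the striatum with collection of the tissue 3 weeks later, stands over every library. The labels name the injection of the GCas9 group only as GCas9 and do not spell it out. It is read here as a Cas9 joined to a part of Geminin. They do not say whether the animals labelled WT received a virus, so that an effect of the injection or of the AAV particle and an effect of its cargo cannot be told apart here. Strain, sex, promoter, serotype and dose are not given in the sources used here, and the age is given as 3 weeks in one field and 3 months in another. The labels give no animal identifiers, so that if the libraries of a group shared animals the p-values would measure only the spread between these libraries. The 3 libraries labelled Cas9 of the same set entered the statistical fit as a source of spread. Some of their values are also given as description, and a difference from them was tested only where stated. The comparison addresses how striatal gene expression differs between tissue labelled GCas9 and tissue labelled WT.

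The striatum is a forebrain nucleus made mainly of GABA-releasing projection neurons that carry dopamine receptors, with microglia as its resident phagocytes and astrocytes as its main supporting cells. Cas9 is a bacterial nuclease that cuts DNA at a site set by a guide RNA. Geminin, the product of Gmnn, blocks the licensing of replication origins by binding Cdt1 and is degraded through the anaphase-promoting complex outside S phase and G2, so that a protein fused to its degron has a shorter life. Cells that sense foreign nucleic acid make interferons, which act through JAK kinases and STAT factors on elements in the promoters of interferon-stimulated genes. Such genes encode antiviral effectors, the GTPases that attack intracellular parasites, the machinery of antigen presentation and chemokines that draw T cells.

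Read depth was similar in both groups, at 20337070 to 24258814 reads on genes in GCas9 and 23919820 to 28045057 in WT, and mitochondrial transcripts took 6.0 to 7.19% of the reads. GCas9 replicate 3 stood apart from the other GCas9 and the WT libraries. On the first principal component, which held 54.7% of the variance of the 9 libraries of the set, the WT libraries scored -44.6, -41.5 and -36 the GCas9 libraries -0.4, -16.7 and 85.8, and the Cas9 libraries 43.7, -24.1 and 33.8. Of the 15924 genes tested, 987 exceeded the highest WT library by more than 2-fold in GCas9 replicate 3, against 293 in replicate 1 and 131 in replicate 2. Cas9 replicates 1 and 3 departed from WT by this count in 922 and 521 genes. Replicate 3 of WT, Cas9 and GCas9 alike held Xist at 26792 to 32909 normalized read counts and Ddx3y, which is Y-linked, at 2.02 to 2.97, whereas the other libraries held Xist at 8.64 to 26.8 and Ddx3y at 1331 to 1582. Each group therefore had 1 library with the transcripts of female animals, and within GCas9 that library was also the one that stood apart, so that sex and the departure of replicate 3 cannot be told apart inside this group. Values per library are given below in the order of replicates 1, 2 and 3, as normalized read counts, which are reads divided by the size factor of the library.

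Gpnmb was the only gene that passed the test across all genes (limma on log2 of the normalized count plus 1, Benjamini-Hochberg adjusted p under 0.05). It encodes a transmembrane glycoprotein of phagocytes with loaded lysosomes and lies on chromosome 6 from 49036546 to 49070929 on the plus strand of GRCm38. Its level was 20.2, 20.7 and 24.7 in WT and 212, 171 and 316 in GCas9, so that every GCas9 library was far above every WT library. The log2 fold change of 3.31 ± 0.28 (SE) had an adjusted p of 0.0142, with 1 of 15924 genes called (0.00628%). A model with the replicate number as a block called 2 genes, Gpnmb and the immunoglobulin segment Ighv2-9, each at an adjusted p of 0.00228. edgeR on the recovered reads also called 1 gene (0.00628%), whereas DESeq2 called 223 (1.4%), of which 207 were higher and 16 lower in GCas9. The single call was lost when any 1 WT library or GCas9 replicate 1 was left out, with an adjusted p of Gpnmb of 0.112 to 0.176 and a log2 fold change of 3.26 to 3.4.

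**Figure D1:**
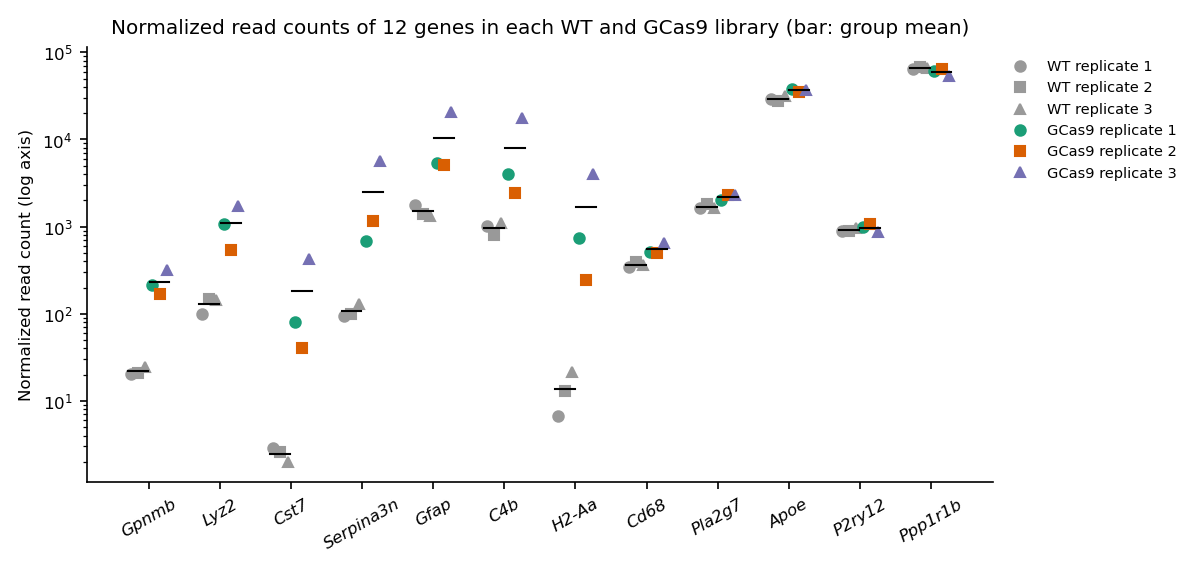
Normalized read counts (log axis) of 12 genes in the 3 WT libraries (grey) and the 3 GCas9 libraries (coloured), with circles, squares and triangles for replicates 1, 2 and 3 and a bar at each group mean. Gpnmb lies at 20.2 to 24.7 in WT and 171 to 316 in GCas9, and for Serpina3n, Gfap, C4b and H2-Aa the third GCas9 library lies above the other two.

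The direction of the larger differences was nearly always towards higher levels in GCas9. The log2 fold change exceeded 1 for 651 genes (4.09% of those tested) and was under -1 for 26 (0.163%), and 608 of the 651 were highest in GCas9 replicate 3. At an unadjusted p under 0.05, 707 genes were higher (4.44%) and 371 lower (2.33%), against 49.9% of all genes tested that were higher in direction. The GCas9 libraries lay wholly above the WT libraries for 1459 genes (9.16%) and wholly below for 1118 (7.02%). These shares of all genes, with those at an unadjusted p under 0.05, are the background for the list counts below. A total of 258 of the 538 genes over 1 that could be tested without GCas9 replicate 3 were still over 1 without it.

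The genes of smallest p after Gpnmb did not pass the threshold, and among them were genes of phagocytes. Lyz2, the lysozyme of macrophages and microglia, read 100.1, 149 and 142 in WT and 1062, 542 and 1710.0 in GCas9, a log2 difference of 2.94 ± 0.42 (SE) with a limma adjusted p of 0.383. Cst7, which encodes cystatin F, an inhibitor of lysosomal proteases, read 2.89, 2.59 and 1.98 against 81.5, 40.0 and 429 (log2 difference 5.03 ± 0.75, limma adjusted p 0.383). In both genes all 3 GCas9 libraries were above all WT libraries, with replicate 2 the lowest of the GCas9 group and replicate 3 the highest. Hist1h1c, a linker histone, had levels of 385, 459 and 359 in WT and 595, 769 and 762 in GCas9. Here GCas9 replicate 3 did not stand apart, and the log2 difference of 0.82 ± 0.13 had a limma adjusted p of 0.383. Pla2g7, whose product degrades platelet-activating factor, was likewise even across the group, at 1637, 1796 and 1656 in WT and 2001, 2289.7 and 2286 in GCas9 (0.37 ± 0.06, limma adjusted p 0.495). Scara3, a scavenger receptor relative, read 552, 503 and 527 against 639.6, 679 and 722 (0.36 ± 0.07, limma adjusted p 0.495).

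On the lower side no gene passed the limma test, and the genes of smallest p differed by little but evenly between libraries. Kcnj11, the pore subunit of the ATP-sensitive potassium channel, read 422, 498 and 455 in WT and 328, 341 and 335 in GCas9, a log2 difference of -0.45 ± 0.08 (limma adjusted p 0.495). Slc6a11, a GABA transporter found mainly on astrocytes, read 2649.8, 2861 and 2759 against 2227, 2316 and 2358 (-0.26 ± 0.05, limma adjusted p 0.495). Neither gene overlapped between the groups, and in both the 3 GCas9 libraries lay within a narrow band. Unc5a, a netrin receptor, read 2308, 2421 and 2402 against 2039, 2042 and 1882 (-0.26 ± 0.05, limma adjusted p 0.539), and Sncb, which encodes beta-synuclein, 2454, 2568 and 2771 against 2182, 2172 and 2248 (-0.24 ± 0.05, limma adjusted p 0.592). Lower genes were also ranked by fitted difference among those whose groups did not overlap, with an unadjusted p under 0.05 and a mean not under 50, and the first 10 held Ngfr, the p75 neurotrophin receptor, at 52.9, 83.6 and 64.3 in WT and 41.2, 38.9 and 39.6 in GCas9 (-0.71 ± 0.26, limma adjusted p 0.724), and Hes5, a target of Notch signalling, at 334, 308 and 296 and 268, 214 and 157 (-0.58 ± 0.18, limma adjusted p 0.724).

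**Figure D2:**
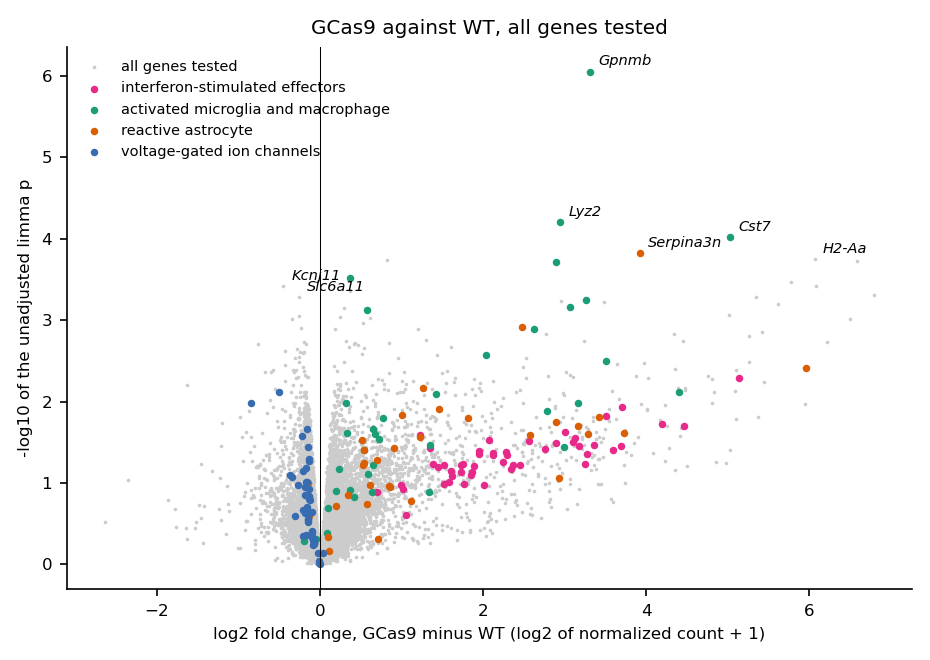
Log2 fold change of GCas9 over WT (x axis) against the -log10 of the unadjusted limma p (y axis) for the 15924 genes tested (grey), with the genes of 4 lists in colour. Gpnmb stands alone at the top with a log2 fold change of 3.31, the interferon-stimulated effectors spread to the right at moderate p, and the ion channels lie just left of 0.

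Genes of activated microglia and macrophages were the group that held the one called gene. Of 36 genes tested on a list of such markers, 34 were higher in GCas9 in direction, 26 lay wholly above WT, 24 were higher at an unadjusted p under 0.05 and 1 was called, against 49.9%, 9.16%, 4.44% and 0.00628% of all genes tested. Of these genes 9 had a WT mean under the filter of 10 and were tested only because other libraries were higher, as were 6 of the reactive astrocyte and 4 of the complement genes below, so that these counts are descriptions. The median log2 difference of the list was 0.70, against 0 over all genes tested, and it was 0.46 without GCas9 replicate 3. Itgax, the integrin CD11c, read 6.74, 12.1 and 5.93 in WT and 45.1, 54 and 241 in GCas9. Msr1, a scavenger receptor, read 1.93, 1.72 and 1.98 in WT, from 6 reads in all, and 15.3, 13 and 41.8 in GCas9, from 65 reads. Cd68, a lysosomal protein of phagocytes, read 346, 390.5 and 365 against 515, 496 and 640.1 (log2 difference 0.57 ± 0.11, limma adjusted p 0.513). For Cd68 the groups did not overlap and all GCas9 libraries were of like height. Spp1, which encodes osteopontin, read 103, 118 and 41.5 against 180.3, 134 and 359 with no overlap but a wide spread within WT (1.35 ± 0.54, limma adjusted p 0.724).

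Of 25 markers of resting microglia tested, 23 were higher in GCas9 in direction and 14 lay wholly above WT (9.16% of all genes). At an unadjusted p under 0.05, 10 were higher (4.44% of all genes), but single markers differed. P2ry12, the ADP receptor that steers microglial processes, overlapped between the groups at 898, 901 and 956 in WT and 980.0, 1062 and 869 in GCas9. Cx3cr1, the fractalkine receptor, also overlapped, at 1159, 1409 and 1311 and 1321, 1524 and 1938. Tmem119 read 402, 449 and 421 against 485, 459 and 1161, so that GCas9 replicates 1 and 2 stayed just above the WT range and replicate 3 was far higher. In contrast the signalling pair of Trem2, a lipid receptor, and Tyrobp, its adaptor, lay above WT in every GCas9 library, Trem2 at 304, 383 and 331 against 463, 478 and 651 and Tyrobp at 254, 317 and 281 against 472, 438 and 938 (log2 differences 0.63 ± 0.18 and 1.03 ± 0.27, limma adjusted p 0.724 and 0.724). Over the 25 genes of the resting list the median log2 difference was 0.38, and 0.20 without GCas9 replicate 3. The microglia-enriched genes Fcrls, at 251, 379 and 230.4 in WT and 383, 495 and 139 in GCas9, and Olfml3, at 319, 342 and 261 and 395, 537 and 181, were lowest in the same GCas9 library in which Tmem119 was highest. In bulk tissue a different number of cells of a type and a different amount of RNA per cell cannot be told apart. Lysosomal genes, on a list of 29, had a median log2 difference of 0.27 (0.16 without GCas9 replicate 3), with 16 wholly above WT. Among them the protease gene Ctsd read 6002, 7062 and 6271 against 8985, 9188 and 16198 (0.78 ± 0.26, limma adjusted p 0.724).

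Genes of reactive astrocytes were higher in GCas9 in direction for 31 of 33 genes tested, with 22 wholly above WT (9.16% of all genes). Their median log2 difference was 0.91 (0.46 without GCas9 replicate 3). None passed the limma test with all libraries. Serpina3n, a secreted protease inhibitor of reactive astrocytes, read 94.3, 100 and 131 in WT and 679, 1149 and 5598 in GCas9. Every GCas9 library was several times above the WT range, replicate 3 most of all. Its log2 difference was 3.92 ± 0.62 with a limma adjusted p of 0.383, and without GCas9 replicate 3 it was 3.03 with an adjusted p of 0.00728, past the threshold. That fit kept replicate 3 of WT and of Cas9, so that the sexes were no longer balanced between groups. Without replicate 3 of every group no gene passed, Serpina3n included. Gfap, the intermediate filament protein of astrocytes, read 1768, 1403 and 1319.9 against 5400.3, 5069 and 20573, with GCas9 replicates 1 and 2 close to each other and replicate 3 apart (2.48 ± 0.53, limma adjusted p 0.592). Vim, another intermediate filament, read 858, 753 and 907 against 1454, 1083 and 4824, and Osmr, a receptor for oncostatin M, 118, 87.9 and 87 against 201, 143 and 448. Lcn2, lipocalin 2, was largely a matter of GCas9 replicate 3, at 3.85, 3.45 and 2.97 in WT and 10.5, 4.32 and 608 in GCas9.

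Genes of resting astrocytes gave a median log2 difference of 0.05 over 20 genes, close to the 0 of all genes. Slc1a2, the main glutamate transporter, overlapped between the groups at 49550.3, 54839 and 52497 in WT and 56700.1, 59432 and 43543 in GCas9. Aqp4, the water channel of astrocyte endfeet, was an exception at 1951, 1864 and 1673 against 2556, 2592 and 5163, with no overlap (0.83 ± 0.24, limma adjusted p 0.724). Slc1a3, the second glutamate transporter of astrocytes, read 11397, 11462 and 11542 against 12666, 12625 and 14896 (0.22 ± 0.07, limma adjusted p 0.724).

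**Figure D3:**
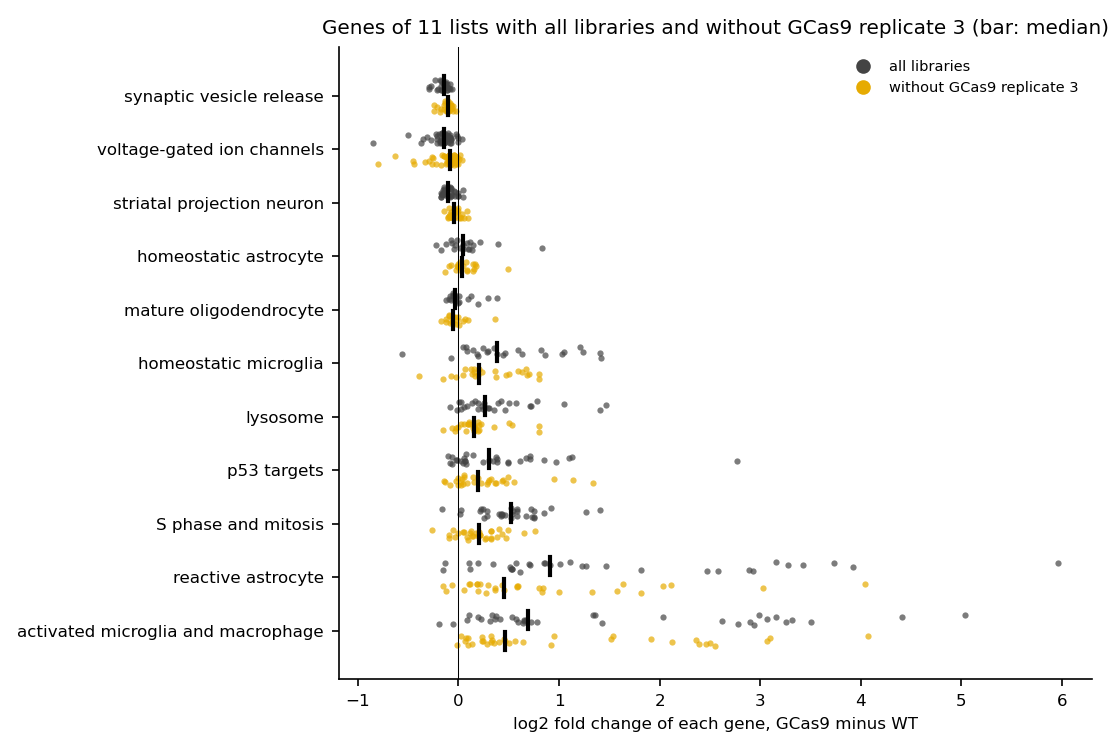
Log2 fold change of each tested gene of 11 lists (x axis), with all libraries (dark points) and without GCas9 replicate 3 (yellow points), and a bar at each median. The median of the reactive astrocyte list moves from 0.91 to 0.46 and that of the activated microglia list from 0.7 to 0.46, and those of the vesicle, ion channel and projection neuron lists from -0.14, -0.14 and -0.1 to -0.1, -0.08 and -0.05.

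Interferon-stimulated genes were higher in GCas9 in direction almost without exception, with GCas9 replicate 3 far above the other libraries and replicate 2 closest to WT. The ligands themselves were close to the detection limit. Ifnb1 had 0 reads over the 3 WT libraries and 2 over the GCas9 libraries, and Ifng had 0 and 10, nearly all of them in GCas9 replicate 3. Of the 6 receptor genes tested 1 lay wholly above WT. Ifnar1 and Ifngr1 overlapped between the groups, with Ifnar1 at 1289.7, 1217 and 1112 in WT and 1382, 1185 and 1559.6 in GCas9 and Ifngr1 at 478, 457 and 423 and 502, 456 and 665.

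Among the sensors of nucleic acid and their adaptors all 27 genes tested were higher in direction, 16 of them wholly above WT (9.16% of all genes). The median log2 difference was 1.00 (0.50 without GCas9 replicate 3). Of these genes 3 had a WT mean under the filter of 10 and were tested only because other libraries were higher. The same held for 2 of the transducers below, so that these counts are descriptions. Zbp1, a sensor of Z-form nucleic acid, read 2.89, 0.862 and 3.96 in WT and 47.9, 13 and 1156 in GCas9. Ifi204, a relative of the human DNA sensor IFI16, read 3.85, 2.59 and 2.97 against 64.2, 17.3 and 496. Both were higher than WT in all 3 GCas9 libraries, but by far the most in replicate 3. Ifih1, which encodes the RNA sensor MDA5, read 53.9, 55.2 and 62.3 against 115, 56.2 and 1293, where replicate 2 lay within the WT range.

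The transducers followed the same order of libraries. Of 18 genes tested, all were higher in direction and 7 lay wholly above WT, and the median log2 difference of 1.20 became 0.27 without GCas9 replicate 3. Stat2 and Irf9, whose products act together in type I interferon signalling, read 857, 876 and 796 in WT and 1086, 810.4 and 5663 in GCas9 for Stat2 and 343, 298 and 343 against 555, 338 and 3246 for Irf9. In both genes GCas9 replicate 2 lay within the WT range, so that the difference rested on replicates 1 and 3. Irf7, which amplifies type I interferon, read 44.3, 32.8 and 22.7 against 199, 35.7 and 3380.4 (3.14 ± 1.40, limma adjusted p 0.724), again with replicate 2 inside the WT range. Irf1, an early interferon-induced transcription factor, read 84.7, 118 and 106 against 219, 153 and 1198, and the feedback inhibitor Socs1 5.78, 6.03 and 7.91 against 17.3, 16.2 and 112. Usp18, which removes ISG15 from proteins and dampens the receptor, read 10.6, 16.4 and 8.9 against 65.2, 20.5 and 1039.

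All 49 effector genes tested were higher in GCas9 in direction, 35 of them wholly above WT and 25 at an unadjusted p under 0.05, and none passed the adjusted limma test. The median log2 difference of the effectors from the WT mean was 1.31 in GCas9 replicate 1, 0.43 in replicate 2 and 4.57 in replicate 3. This order, replicate 3 above 1 above 2, held in 47 of the 49 genes, against 3646 of all 15924. GCas9 replicate 1 lay above the highest WT library in 48 of them (28.8% of all genes), replicate 2 in 36 (25.6%) and replicate 3 in 49 (33.6%). Isg15, a ubiquitin-like modifier, read 20.2, 19.8 and 14.8 in WT and 73.8, 25.9 and 2991 in GCas9 (log2 difference 3.25 ± 1.50, limma adjusted p 0.725). Ifit1, which binds foreign RNA ends, read 36.6, 32.8 and 30.6 against 148, 56.2 and 4237, and its neighbour Ifit3 84.7, 96.5 and 81.1 against 357, 150.2 and 5141. Oasl2, of the oligoadenylate synthetase family, read 63.5, 53.4 and 54.4 against 337, 96.2 and 10522, and Mx1, an antiviral GTPase, 4.81, 2.59 and 5.93 against 40.3, 15.1 and 1316. Without GCas9 replicate 3 the median of the effectors was 0.91, and without replicate 3 of every group 0.92. Of the tested genes, 10 of the effectors, 4 of the GTPases, 3 of the class II genes and 1 of the class I genes had a WT mean under the filter of 10. They were tested only because other libraries were higher, so that the counts for these lists are descriptions.

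The interferon-inducible GTPases, which act on vacuoles of intracellular parasites, were all higher in direction (16 genes, 13 wholly above WT, median log2 difference 2.77, and 1.49 without GCas9 replicate 3). Gbp2 read 59.7, 58.6 and 68.2 in WT and 264, 132 and 2889.6 in GCas9 (2.89 ± 0.99, limma adjusted p 0.724). Igtp read 36.6, 62.9 and 46.5 against 305, 111 and 3505 and Irgm1 104, 101 and 109.7 against 492, 196 and 4247. In each of these genes the lowest GCas9 library was above the highest WT library. Reads of the Gbp family and of other near-identical copies may have been split between genes in counting, so that the value of a single copy is uncertain.

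**Figure D4:**
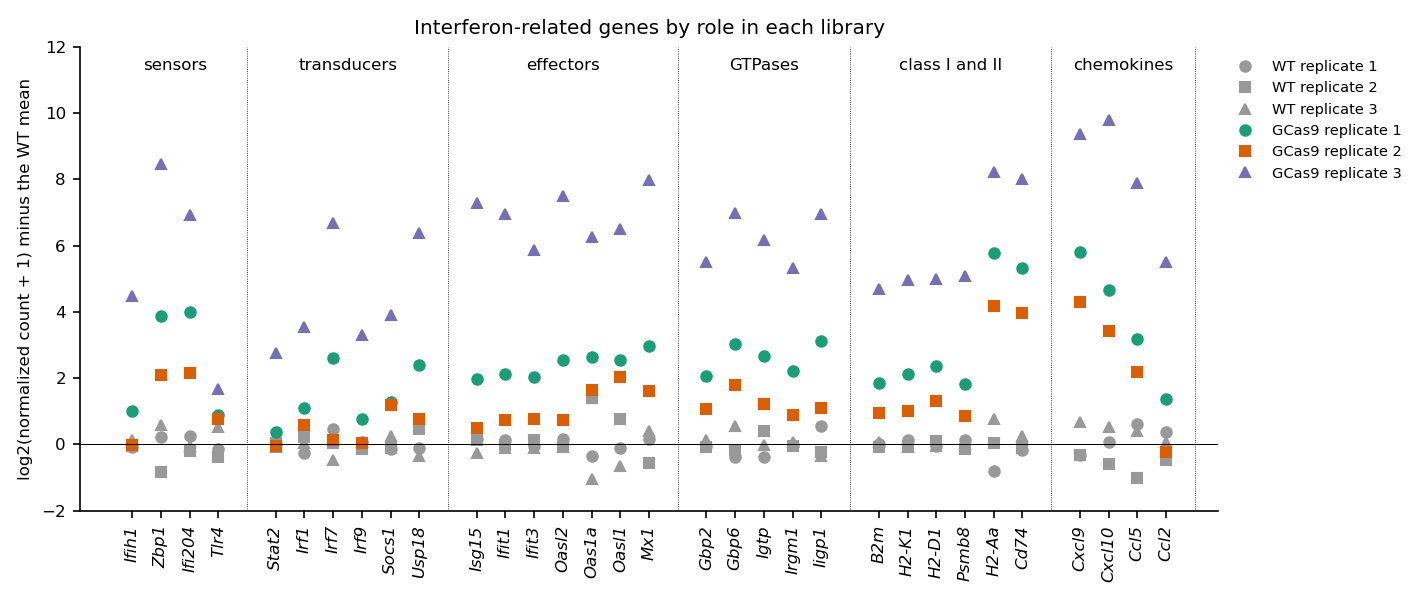
Log2 of the normalized count plus 1 minus the WT mean (y axis) for interferon-related genes ordered by role, with WT libraries in grey and GCas9 libraries in colour. Replicate 3 of GCas9 is the highest library throughout and replicate 2 the lowest of the GCas9 group in every gene drawn, and Ifih1, Stat2 and Irf9 of replicate 2 lie at the WT level.

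Promoter sequences of the genes that carried this pattern are shown because interferon acts through elements in such promoters. In RefSeq promoters on GRCm38.p6, the 250 bases before the transcription start were searched on both strands for the core of the interferon-stimulated response element (ISRE), which is GAAA, any 2 bases and GAAA, and for the palindrome TTCNNNGAA, the core of the gamma-activated sequence. A match is a match of letters only, and one on the strand opposite to the gene is printed as its reverse complement. The ISRE core occurred in 359 of 11441 tested genes with a promoter in the table (3.14%), in 13 of 39 effectors (33.3%), 9 of 10 GTPases (90%) and 3 of 15 transducers (20%). It occurred in 3 of 19 class I (15.8%), 2 of 16 sensor (12.5%), 2 of 18 chemokine (11.1%) and 1 of 10 class II genes (10%). In the reactive astrocyte list it occurred in 5 of 29 (17.2%), in the activated microglia list in 2 of 28 (7.14%) and among p53 targets in 1 of 23 (4.35%). It also occurred in 3 of 20 genes of the synaptic vesicle list (15%) and 2 of 22 of the projection neuron list (9.09%), whose genes were mostly lower in direction. Many of these counts are of a few genes. TTCNNNGAA occurred in 829 of 11441 (7.25%), in 6 of 10 GTPases (60%), 4 of 15 transducers (26.7%) and 5 of 39 effectors (12.8%). The stretches below run 5′ to 3′ on the strand of the gene, with the matches in capitals.
Isg15 (chr4:156200855-156200916, minus strand): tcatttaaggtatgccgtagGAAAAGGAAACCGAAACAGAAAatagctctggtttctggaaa
Ifit1 (chr19:34640765-34640833, plus strand): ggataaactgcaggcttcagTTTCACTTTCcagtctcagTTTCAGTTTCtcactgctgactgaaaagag
Ifit3 (chr19:34583353-34583436, plus strand): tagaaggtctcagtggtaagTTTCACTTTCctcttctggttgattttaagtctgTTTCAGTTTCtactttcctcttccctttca
Gbp2 (chr3:142620584-142620633, plus strand): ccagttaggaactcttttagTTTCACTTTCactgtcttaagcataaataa
Igtp (chr11:58199502-58199551, plus strand): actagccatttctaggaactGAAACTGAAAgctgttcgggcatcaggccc
Irgm1 (chr11:48871421-48871470, minus strand): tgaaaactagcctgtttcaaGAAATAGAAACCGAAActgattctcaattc
Cxcl10 (chr5:92349073-92349122, minus strand): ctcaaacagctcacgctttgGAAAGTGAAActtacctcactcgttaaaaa
B2m (chr2:122147528-122147577, plus strand): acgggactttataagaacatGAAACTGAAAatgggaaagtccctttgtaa
Irf1 (chr11:53769904-53769952, plus strand): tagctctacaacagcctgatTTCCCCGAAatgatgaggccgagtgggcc
The capitals of the first 8 mark the ISRE core alone, and those of Irf1 mark TTCNNNGAA. The stretch of Igtp also holds a match to TTCNNNGAA, which is left in lower case. In Isg15 and in Irgm1 matches overlap, and Ifit1 and Ifit3 each hold 2 separate matches. The promoter of Gpnmb held neither motif in this window, and those of Irf9 held no ISRE core. Another promoter of Irf1, not printed, held no match to TTCNNNGAA.

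Antigen presentation followed the interferon-stimulated genes. All 22 class I genes tested were higher in direction, 16 wholly above WT, with a median log2 difference of 1.74 (0.90 without GCas9 replicate 3). B2m, the light chain of every class I molecule, read 996, 939.6 and 1033 in WT and 3548, 1910.4 and 25376 in GCas9 (2.49 ± 0.90, limma adjusted p 0.724). H2-D1, a heavy chain, read 658, 728 and 662 against 3516, 1694 and 21583, and Psmb8, a subunit of the immunoproteasome, 53.9, 44.8 and 50.4 against 176, 89.7 and 1704. For all of these the groups did not overlap, and GCas9 replicate 3 was several times above replicates 1 and 2. H2 genes are near-identical in part, so that reads may have been shared among them.

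Class II genes, which present antigen to CD4+ T cells and mark professional antigen-presenting cells, were higher in direction in all 15 genes, with 8 wholly above WT and a median log2 difference of 1.83 (0.90 without GCas9 replicate 3). H2-Aa read 6.74, 12.9 and 21.8 in WT and 734, 245 and 4066 in GCas9, a log2 difference of 6.07 ± 0.99 (limma adjusted p 0.383). Cd74, the invariant chain, read 32.7, 34.5 and 44.5 against 1527, 591 and 9852 (5.77 ± 1.03, limma adjusted p 0.495). H2-Ab1 read 8.66, 11.2 and 27.7 against 556, 187 and 3854 and H2-Eb1 16.4, 16.4 and 17.8 against 538, 197 and 3541. In these 4 genes even the lowest GCas9 library, replicate 2, was more than 6-fold above the highest WT library. In the same library Irf7 and Stat2 lay within the WT range.

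Chemokines that draw T cells were nearly silent in WT. Cxcl9 read 0, 0 and 0.989 in WT, from 1 read in all, and 69, 23.8 and 840.3 in GCas9, from 837 reads. Cxcl10 read 1.93, 0.862 and 2.97 against 69, 29.2 and 2449 (5.96 ± 1.54, limma adjusted p 0.724), and Ccl5 4.81, 0.862 and 3.96 against 33.6, 16.2 and 904 (4.43 ± 1.58, limma adjusted p 0.724). Each was above the WT range in all 3 GCas9 libraries. Ccl2, which draws monocytes, overlapped between the groups at 3.85, 1.72 and 2.97 and 8.63, 2.16 and 169. On the list of chemokines and their receptors 20 of 24 genes tested were higher in direction and 11 lay wholly above WT. As 15 of them had a WT mean under the filter of 10 and were tested only because other libraries were higher, this count describes the tested genes and does not speak for the whole list.

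Transcripts of lymphocytes and plasma cells were mostly highest in GCas9 replicate 3. The order of replicate 3 above 1 above 2 held in 21 of the 29 T and NK cell genes tested. It held in 10 of the 20 B and plasma cell genes tested, against 3646 of all 15924. Of the 29 T and NK cell genes, 20 had a WT mean under the filter of 10 and were tested only because other libraries were higher. Summed over the list of T and NK cell genes without Cd4, levels were 257 to 318.4 in WT and 487.1, 352.3 and 5145 in GCas9. Cd3g, a chain of the T cell receptor complex, read 0, 0 and 0.989 in WT (1 read) and 6.71, 10.8 and 144 in GCas9 (144 reads), and Cd8a 0, 0 and 0.989 (1 read) against 6.71, 2.16 and 81.4 (81 reads). Cd3e read 5.78, 1.72 and 2.97 against 2.88, 6.48 and 126, with overlap. Replicate 1 lay within the WT range, replicate 2 just above it and replicate 3 far above it. Cd4 was left out of the sum, as it read 3899, 3836 and 3302 in WT already, against 3708, 3384 and 3032 in GCas9. Of the 39 genes of the list, 5 had no read in WT and 10 were too low to test.

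Immunoglobulin transcripts were higher in every GCas9 library. Igkc, the kappa light chain constant gene, read 55.8, 80.2 and 82.1 in WT and 916, 998 and 16701 in GCas9 (5.09 ± 1.33, limma adjusted p 0.724). Ighg2b, a heavy chain constant gene, read 7.7, 12.1 and 24.7 against 789, 482 and 6730.3 (6.58 ± 1.08, limma adjusted p 0.383). The variable segment Ighv2-9, called only in the model with the replicate block, read 0, 0 and 4.94 against 74.8, 47.5 and 507. Ighg3 had another order, at 2.89, 4.31 and 2.97 against 17.3, 172 and 273, with replicate 2 close to replicate 3. The B cell surface gene Cd79b was far lower, at 2.89, 2.59 and 6.92 against 13.4, 10.8 and 92.7. Immunoglobulin segments share sequence, and their reads may have been split between them. Of 20 B and plasma cell genes tested, 10 had a WT mean under 10 and were tested only because other libraries were higher. Summed over the whole list the level was 2189 to 2751 in WT and 5752 to 64672 in GCas9. Whether any of the interferon, class II and chemokine differences came with lymphocytes or plasma cells was not tested.

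Of 14 tested markers of infiltrating myeloid cells, 13 were higher in GCas9 in direction and 7 lay wholly above WT (9.16% of all genes). Their median log2 difference was 1.73, and 0.90 without GCas9 replicate 3. Of the 14, 8 had a WT mean under the filter of 10 and were tested only because other libraries were higher. These counts are therefore descriptions, and 9 further genes of the list were too low to test. Ly6c2, a marker of inflammatory monocytes, was at 1.93, 0 and 0 in WT and 9.59, 3.24 and 758 in GCas9, so that almost all of it lay in replicate 3. Ccr2, their chemokine receptor, read 2.89, 5.17 and 0.989 against 10.5, 8.64 and 215. Ms4a7, a gene of macrophages from the blood and of brain borders, read 6.74, 6.03 and 2.97 against 53.7, 14 and 82.6, with replicate 1 closer to replicate 3. The neutrophil genes Ly6g and Elane had no read in any of the 6 libraries.

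**Figure D5:**
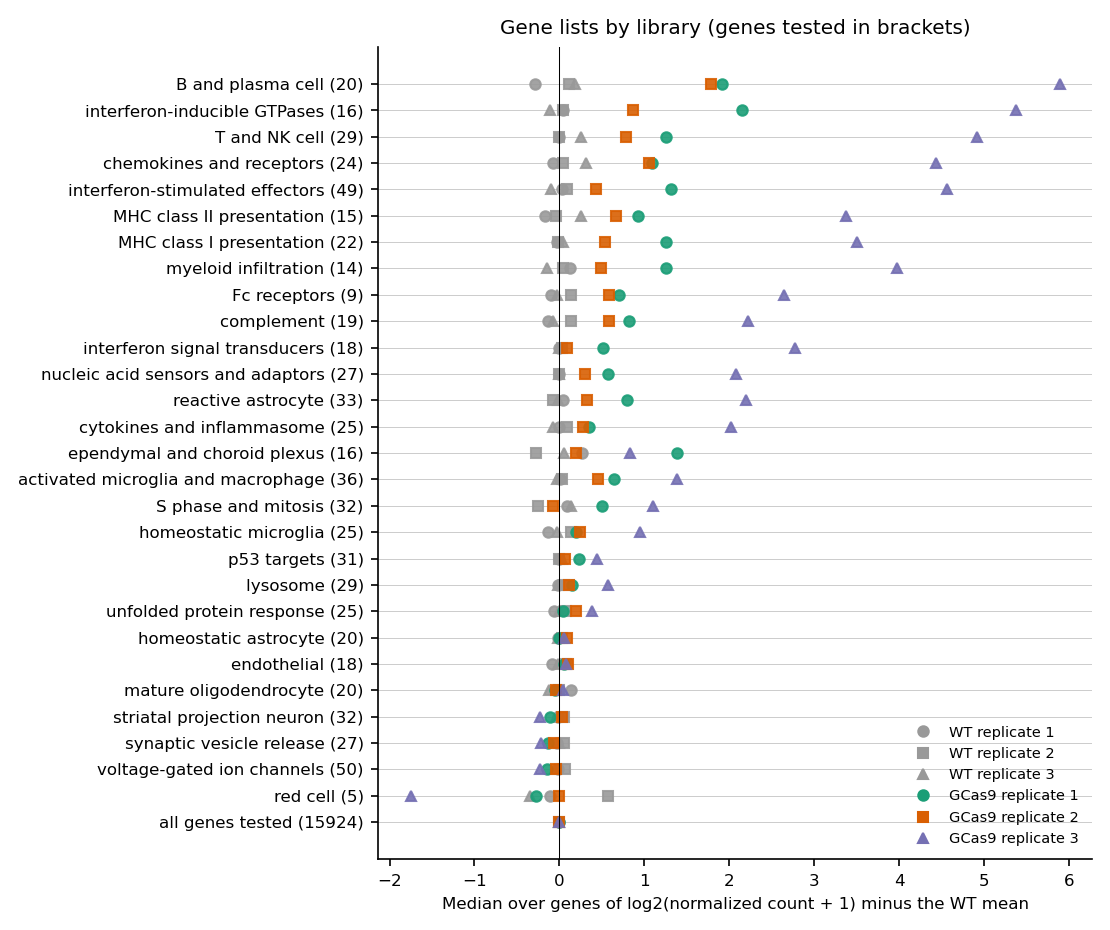
Median over the genes of each list of log2 normalized count plus 1 minus the WT mean (x axis), for the 3 WT libraries (grey) and the 3 GCas9 libraries (coloured). For the interferon-stimulated effectors the medians are 1.31, 0.43 and 4.57 in GCas9 replicates 1, 2 and 3, whereas the choroid plexus list is highest in replicate 1 at 1.39 and the list of all genes lies at 0.

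Complement, Fc receptor and cytokine genes completed the inflammatory groups. Of 19 complement genes tested 13 lay wholly above WT, with a median log2 difference of 1.21 (0.69 without GCas9 replicate 3). C4b, which tags targets for clearance, read 1027, 811 and 1087 in WT and 4008, 2425 and 17634 in GCas9 (2.52 ± 0.68, limma adjusted p 0.724). C1qa, a chain of the initiator C1q made by microglia, read 789, 1039 and 788 against 1605, 1409 and 5487, and the central component C3 31.8, 21.6 and 42.5 against 201, 83.2 and 2332. All 3 genes lay above WT in every GCas9 library. The activating Fc receptor gene Fcgr4 read 3.85, 2.59 and 0.989 against 31.6, 11.9 and 157, and the inhibitory Fcgr2b 58.7, 58.6 and 64.3 against 145, 122 and 681. Tnf was low, at 0, 1.72 and 1.98 in WT (4 reads) and 5.75, 3.24 and 67.9 in GCas9 (69 reads). Il1b, with 2 reads over WT and 41 over GCas9, was at 0, 2.16 and 44.1 in the GCas9 libraries.

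Genes of the cell cycle were examined because the fused Geminin part is a cell cycle degron. Gmnn itself, the mouse gene, overlapped between the groups at 103, 106 and 96.9 in WT and 111, 97.2 and 90.5 in GCas9, a log2 difference of -0.04 ± 0.13 (limma adjusted p 0.96). The deposited table gives one value per mouse gene, and reads of the viral construct were not analysed here, so that delivery of Cas9 could not be checked from these values. Cdt1, the partner that Geminin inhibits, read 31.8, 27.6 and 33.6 against 29.7, 31.3 and 69, with overlap. Over 24 licensing genes the median log2 difference was 0.22, 0.06 without GCas9 replicate 3 and 0.02 under quantile normalization. The 19 genes of the anaphase-promoting complex and its regulators had a median of 0, with Fzr1, the activator that targets Geminin in G1, at 1400.4, 1409 and 1477 in WT and 1317, 1372 and 1303 in GCas9.

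Genes of S phase and mitosis were higher in GCas9 in direction in 31 of 32, with 4 wholly above WT (9.16% of all genes). At an unadjusted p under 0.05, 6 were higher (4.44% of all genes). The order of replicate 3 above 1 above 2 held in 30, against 3646 of all 15924 genes. The median log2 difference was 0.52, 0.20 without GCas9 replicate 3 and 0.30 under quantile normalization. Ccna2, cyclin A2, read 167, 159 and 140.4 in WT and 222, 188 and 265 in GCas9 (0.52 ± 0.17, limma adjusted p 0.724). Top2a, a topoisomerase of dividing cells, read 218, 164 and 233 against 379, 216 and 699, with GCas9 replicate 2 inside the WT range. Mki67, the proliferation marker Ki-67, read 276, 187 and 253 against 361, 205 and 844 with the same pattern (0.75 ± 0.43, limma adjusted p 0.75). GCas9 replicate 3, the highest library for these genes, was also the highest for lymphocyte genes. In Cas9 replicates 1 and 3 the T and NK list had medians of 2.80 and 2.95 above the WT mean, and in GCas9 replicate 1 of 1.26. The S phase medians of these Cas9 libraries were -0.18 and -0.17. Whether the cell cycle transcripts came with lymphocytes was not tested.

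Targets of p53, which respond to DNA breaks, were higher in direction in 25 of 31 genes tested. Of the 31, 12 lay wholly above WT (9.16% of all genes) and 1 wholly below (7.02%). At an unadjusted p under 0.05, 6 were higher (4.44% of all genes). The median log2 difference of the list was 0.31. This median was 0.19 without GCas9 replicate 3, and 0.1 under quantile normalization. Ccng1, cyclin G1, read 826, 922 and 755 in WT and 1314, 1129 and 1389.9 in GCas9 (0.61 ± 0.13, limma adjusted p 0.539). Cdkn1a, the cell cycle inhibitor p21, read 343, 316 and 324 against 561, 379 and 726 (0.71 ± 0.19, limma adjusted p 0.724). Both were above WT in all 3 GCas9 libraries, with replicate 2 the lowest. Trp53 and its regulator Mdm2 overlapped, Trp53 at 784, 717 and 748 against 701, 659 and 866 and Mdm2 at 1311, 1340.4 and 1389 against 1464, 1347 and 1684. Genes of double-strand break repair had a median of 0.05 over 38 genes, with none at an unadjusted p under 0.05. The injury-responsive factor Atf3 read 16.4, 17.2 and 15.8 against 29.7, 34.6 and 93.9 (1.43 ± 0.42, limma adjusted p 0.724). The list of neuronal injury genes had a median of only 0.09 over 18 genes, with 13 higher and 5 lower in direction. Of these, 3 lay wholly above WT and 2 wholly below. For the unfolded protein response, 22 of 25 genes were higher in direction with a median of 0.24 (0.15 without GCas9 replicate 3).

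Neuronal genes were slightly lower in GCas9 in direction, and none passed the test. Of the 32 genes tested of striatal projection neurons, 30 were lower, with a median log2 difference of -0.10, and none had an unadjusted p under 0.05. Without GCas9 replicate 3 the median was -0.05, and 7 of the 32 were higher. The markers that define this tissue were abundant in every library. Ppp1r1b, which encodes DARPP-32, a relay of dopamine signals, read 64515, 68228 and 65928 in WT and 61801, 65020.0 and 53417 in GCas9 (-0.14 ± 0.11, limma adjusted p 0.787). The groups overlapped, and GCas9 replicate 3 was the lowest library. Drd2, the D2 dopamine receptor of the indirect pathway, read 5593, 5982 and 5683 against 5209, 5471 and 4675 (-0.17 ± 0.09, limma adjusted p 0.735), and Drd1a, the D1 receptor of the direct pathway, 7319.8, 7675 and 7320.4 against 6862, 7140.3 and 6856 (-0.10 ± 0.09, limma adjusted p 0.815). For both receptors the highest GCas9 library was below the lowest WT library, by a small margin. Penk and Tac1, the peptide genes of these pathways, overlapped, Penk at 51064, 58120.3 and 55234 against 51174, 59503 and 47457 and Tac1 at 4992, 5449 and 5463 against 4887, 5622 and 4968.

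Genes of synaptic vesicle release were lower in direction in all 27 tested, 8 of them wholly below WT (7.02% of all genes) and 3 at an unadjusted p under 0.05 (2.33% of all genes), with a median log2 difference of -0.14. Cplx1, complexin 1, which clamps vesicle fusion, read 11976, 12279 and 10873 in WT and 10279, 10374 and 9699 in GCas9 (-0.21 ± 0.06, limma adjusted p 0.724). Snap25, a fusion protein, read 30215, 30731 and 31393 against 27864, 29554 and 26558 (-0.14 ± 0.09, limma adjusted p 0.768). Of 50 ion channel genes 49 were lower, 13 wholly below WT, with a median of -0.14. Without GCas9 replicate 3 the medians of the vesicle and ion channel lists were -0.10 and -0.08. Kcnc2, a fast potassium channel, read 262, 323 and 316 against 218, 172 and 252 (-0.50 ± 0.14, limma adjusted p 0.724), and Kcnj6, an inward rectifier, 28.9, 41.4 and 31.6 against 18.2, 19.4 and 17 (-0.85 ± 0.26, limma adjusted p 0.724). Per library the median difference of the ion channel list from the WT mean was -0.14, -0.04 and -0.23 in GCas9 replicates 1 to 3, the reverse of the order of the interferon lists. Quantile normalization moved the medians of the vesicle, ion channel and projection neuron lists to -0.08, -0.1 and -0.04, and moved the median of all genes by -0.04. Immediate early genes, which report neuronal activity, had a median of -0.05 over 24 genes, and -0.16 without GCas9 replicate 3.

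Lists of oligodendrocyte and vascular cells had medians closer to 0 than those of the choroid plexus and of red cells. Mature oligodendrocyte genes had a median log2 difference of -0.03 over 20 genes, with the myelin genes Mbp at 116535, 102353 and 96690.1 in WT and 101631, 95619 and 105651 in GCas9 and Mal at 8256, 7757 and 6433 and 7963, 7618 and 6451. Oligodendrocyte precursor genes gave -0.06, endothelial genes 0.08 and mural and fibroblast genes 0.15 as medians of the log2 difference. Cldn5, the tight junction gene of brain endothelium, read 519.7, 797 and 617 against 602, 775 and 651. Genes of cortical excitatory neurons, which mark tissue above the striatum, had a median of -0.18 over 14 genes, and -0.26 under quantile normalization. Without GCas9 replicate 2 this median was -0.02, and without replicate 3 of every group it turned to 0.04. Choroid plexus and ependymal genes, which mark tissue of the ventricle next to the striatum, were higher in GCas9 in direction in all 16, mainly in replicate 1. Of these 16 genes, 3 had a WT mean under the filter of 10 and were tested only because other libraries were higher. Ttr, transthyretin of the choroid plexus, read 413, 272 and 281 in WT and 10462, 616 and 2711 in GCas9, with replicate 1 far above the others. Its log2 difference was 3.03 ± 2.23, and Ttr was at 280177, 188 and 1817 in the Cas9 libraries, which share the fit. All 5 red cell genes were lower in direction, with Hbb-bs, a beta globin, at 1306, 1736 and 1237 against 1155, 1406 and 683, overlapping between the groups and lowest in replicate 3.

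A few genes set GCas9 replicate 2 apart. Cdhr1, a cadherin relative, read 206, 184 and 225 in WT and 191, 1689 and 209 in GCas9, and Hist2h2bb, a histone gene, 44.3, 35.3 and 49.4 against 63.3, 0 and 157. Replicate 2 of the Cas9 group shared both departures, with Cdhr1 at 136, 1565 and 173 and Hist2h2bb at 66.6, 0 and 64.7 in the Cas9 libraries. GCas9 replicate 2 and Cas9 replicate 2 were the most alike pair of the set, at a Pearson correlation of 0.9933 over the log2 values of the genes tested, against 0.9865 to 0.9904 for pairs of WT libraries and 0.9436 to 0.9855 for pairs of GCas9 libraries.

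GCas9 was also tested against Cas9, a comparison that shares the GCas9 libraries with the one described. No gene passed the limma test between the virus groups (0 of 15924, 0%), and 868 had an unadjusted p under 0.05 (5.45%). Gpnmb read 146, 144 and 251 in the Cas9 libraries, and GCas9 minus Cas9 was 0.37 ± 0.28 on the log2 scale with a limma adjusted p of 0.942. Isg15 read 189, 27.6 and 123 in Cas9, against 73.8, 25.9 and 2991 in GCas9 (1.05 ± 1.50, limma adjusted p 0.955). Cas9 and GCas9 overlapped in both genes. Top2a read 158, 147 and 188 in Cas9, wholly below 379, 216 and 699 in GCas9, and Ccna2 145, 165 and 115 against 222, 188 and 265, with log2 differences between the virus groups of 1.23 ± 0.36 and 0.67 ± 0.17 and a limma adjusted p of 0.89 for each. Mal, at 14083, 8969 and 11024 in Cas9 against 7963, 7618 and 6451 in GCas9, differed by -0.61 ± 0.16 (limma adjusted p 0.89), and Slc6a11, at 2637, 2805 and 2808 against 2227, 2316 and 2358, by -0.26 ± 0.05 (limma adjusted p 0.89). A p above the threshold does not show that the virus groups were alike.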

How the data were processed

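RNA from mouse striatum was sequenced after SMARTer cDNA synthesis and Nextera XT library preparation, per the labels' protocols. GRCm38.p3 is the build, and DESeq2, HTSeq, SAMtools, STAR 2.5.2b and R 3.3.3 the tools, listed per the submitters' processing notes. The deposited values are a signal per gene, read counts that the authors divided by DESeq2 size factors. Every value of the table for these libraries was a whole number of reads, within 0.001 reads, times what 1 read is worth in its library, so that reads could be recovered.

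Groups came from the sample titles. The test was limma 3.58.1 in R 4.3.3 on log2 of the normalized count plus 1, with a trended variance, over the 9 libraries of the first set in 3 groups. Genes with a mean of at least 10 over these libraries were kept, and p-values were adjusted by Benjamini-Hochberg over all 15924. Fold changes are on this log2 scale, which understates those of low genes. The adjustment threshold was 0.05. An exact permutation test of 3 against 3 libraries cannot go below 0.1. The fitting script was tested on simulated data. edgeR 4.0.16 and DESeq2 1.42.0 were run on the recovered reads as alternatives.

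Replicate numbers were checked for pairing. Deviations from the group means correlated between the WT and GCas9 libraries of the same number at 0.284, 0.112 and 0.197 over all genes, and at 0.254, 0.085 and 0.128 over autosomal genes, so that the model with the replicate block is given beside the count of called genes. The labels do not give the origin of the pairing, and replicate 3 of each group differed in sex from the others.

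The 46 gene lists share genes, held 1036 distinct genes of the table and are described by counts and medians alone. Named genes are those called, those of smallest p or largest fold change per direction, up to 4 of smallest p per list, those in which 1 GCas9 library departs most, and a fixed set. The comparison, lists and rule were chosen with earlier results of these data known. Positions are those of GENCODE M21 on GRCm38, and promoters those of RefSeq. Libraries of the second set were not used, and 1 gene of the interferon lists is not reported by name here.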

Additional observations from a re-analysis of the deposited data

How the results depend on the processing

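The count of called genes was 1 with pseudocounts of 0.5 and 5, without the filter, with a mean of at least 50, over the 6 WT and GCas9 libraries alone, under quantile normalization, without Cas9 replicate 1 and with edgeR. It was 2 with the replicate block, 6 with array weights and 223 with DESeq2, and the cause of these differences was not tested. Leaving out 1 WT or GCas9 library gave 0 to 2 called genes, and leaving out replicate 3 of every group, chosen after seeing the data as was leaving out Cas9 replicate 1, gave 0, with 349 genes at an unadjusted p under 0.05. The adjusted p of Gpnmb was 0.0166 to 0.176 when 1 WT or GCas9 library was left out and 0.0524 without replicate 3 of every group. Beside that of Ighv2-9, the replicate block changed no call among the genes named.

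Among the genes named, the sign turned in the following. When 1 WT or GCas9 library was left out, the log2 difference ran for Cdhr1 from -0.032 to 1.538, for Cdt1 from -0.017 to 0.577, for Cldn5 from -0.061 to 0.247, for Fcrls from -0.278 to 0.634, for Gmnn from -0.118 to 0.029, for Hist2h2bb from -2.444 to 1.209, for Mal from -0.130 to 0.066, for Mbp from -0.114 to 0.020, for Olfml3 from -0.190 to 0.592, for Penk from -0.151 to 0.012, for Slc1a2 from -0.073 to 0.152, and for Trp53 from -0.141 to 0.056. Under quantile normalization it was -0.048 for Fcrls, 0.036 for Mal, 0.000 for Mbp, 0.006 for Penk and 0.011 for Tac1. With array weights it was 0.046 for Gmnn and 0.016 for Mal. With edgeR it was 0.756 for Hist2h2bb. With DESeq2 it was 0.774 for Hist2h2bb. Without replicate 3 of every group it was 0.019 for Penk and 0.007 for Tac1. In that setting 4 gene lists also turned sign, that of cortical excitatory neurons among them. Depth limits the genes with 3 or fewer reads over the WT libraries, such as Cxcl9, Cd3g and Cd8a, for which no fold is given.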
